A study of Mus musculus with 4 samples.

Results

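The allograft tumours of this series were grown from ESC-FC1801, a line of mouse embryonic Schwann cells with the FVB/N background. In it, both floxed copies of Nf2 (Nf2Flox/Flox) were deleted in culture by an adenovirus carrying Cre, giving NF2-/- cells. Mice with such a tumour received vehicle or 100 mg/kg NXD30001, an inhibitor of the chaperone HSP90, 3 times a week for 4 weeks, and RNA of the tumours was sequenced. Both tumours carry the same deletion and come from 1 line, and the mice's strain, age and immune status, the implantation site and the time from the last dose to collection are not given in the sources used here. There was 1 library from each group. The series also holds 1 library each of the line in culture with DMSO or 1 µM NXD30001 for 24 h, used here to tell which genes the line transcribes. Of 35604 gene rows in the tumour table, 15550 were compared: those with a usable estimate and at least 1 FPKM in either tumour. FPKM corrects a gene's fragments for the length of its transcripts and the size of the library, so it can be set side by side between genes. Each difference is the treated tumour's log2(FPKM + 1) less the vehicle tumour's, which understates the change of low genes, and levels given as a pair put the vehicle tumour first.

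Schwann cells are the glia of peripheral nerve. Their lineage is set up by the transcription factor SOX10, and their myelin programme by EGR2 and POU3F1, which switch on genes such as Mbp and Pmp22. Nf2 encodes merlin, a membrane-linked tumour suppressor of the Hippo and receptor kinase pathways, and its loss in Schwann cells underlies schwannoma. HSP90 keeps many kinases and receptors folded, ERBB receptors among them, and its inhibition is known to release the heat shock factor HSF1. A tumour grown in a mouse also holds host vessels, macrophages and other stroma, which share its RNA. In such bulk RNA, fewer cells of a type and less RNA per cell cannot be told apart.

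With 1 library a group, no value has a replicate error and no test was made: "higher" and "lower" describe 2 libraries. The authors' deposited table gives its own statistic from reads, from which an error of the log2 ratio can be implied (called the implied error below). It compares 2 libraries and holds no spread between animals. The median of all differences was -0.03 (quartiles -0.35 and 0.31). At least 2-fold higher were 1139 genes (7.32%), and at least 2-fold lower 1077 (6.93%). The authors' deposited table called 489 of the compared genes higher (3.14%) and 381 lower (2.45%). Low genes spread more: 13.2% of genes between 1 and 3 FPKM in the mean of both libraries were 2-fold higher and 13.1% lower, with a median implied error of 0.81 (SE, log2), against 3.54% and 3.37% between 100 and 300 FPKM, with 0.29. Judged by 64 genes with the error of a single fragment per library, sequencing of the treated library was 1.19 times deeper. Of the compared genes, 38.1% share their table locus with another row and are marked "shared locus" below. Their reads may belong in part to the neighbour, and the sources used here do not say if strand was kept, so antisense partners cannot be told apart.

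Tumour identity was checked first. Nf2 itself (ENSMUSG00000009073, chromosome 11 from 4665848 to 4749539, mm9) was at 57.2 against 42.8 FPKM, a whole-gene level that does not show whether the floxed exons are missing and that includes host cells. The Schwann regulator Sox10 was at 47 against 139.8 FPKM and Erbb3, the neuregulin receptor of this lineage, at 12.4 against 26.3 FPKM, so both tumours held the RNA of the labelled cell type. The 10 most abundant genes left after blank, repeated and predicted symbols were removed were mostly cytoskeletal and translation genes. They included Vim, the intermediate filament vimentin, at 5664 against 7534 FPKM and S100a4, a calcium-binding protein of motile cells, at 2419 against 3763 FPKM. None of 7 Y-linked genes reached 1 FPKM in either tumour.

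The treated tumour held more RNA of Schwann lineage and myelin genes than the vehicle tumour. Of 13 measured lineage genes, 11 were higher, 8 of them at least 2-fold, and the same number was called higher in the authors' deposited table, with none 2-fold lower. Among all compared genes 7.32% were 2-fold higher. The median of the list was 1.03 and its summed level was 431 FPKM with vehicle and 845 FPKM with NXD30001. Of 15 measured myelin genes, 8 were 2-fold higher, none 2-fold lower, 7 were called higher in the authors' deposited table, and the median was 1.13. All 13 lineage genes and 14 of the 15 myelin genes were above 0.1 FPKM in at least 1 library of the cultured line.

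**Figure D1:**
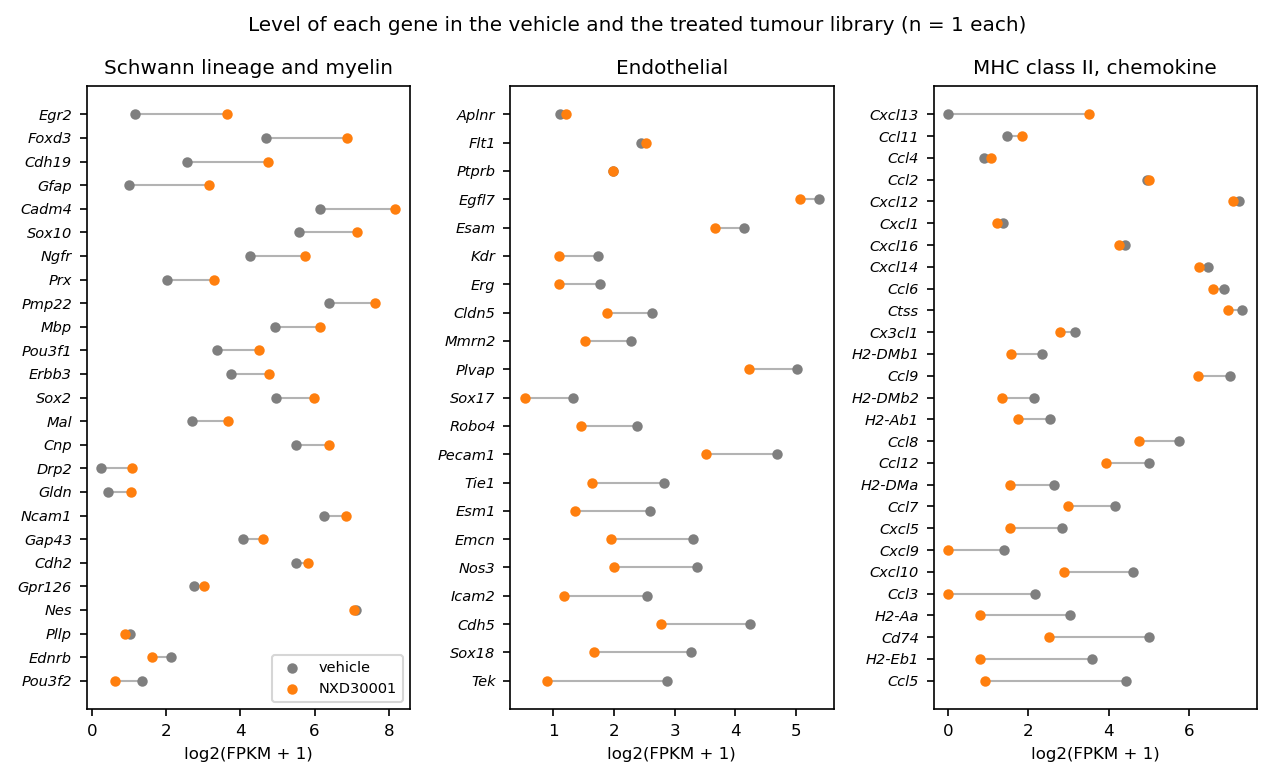
Levels of single genes in the vehicle (grey) and NXD30001 (orange) tumour libraries as log2(FPKM + 1), with n = 1 per group and no error bar, for Schwann lineage and myelin genes, endothelial genes, and MHC class II and chemokine genes, ordered by difference, with some list members left out. Orange points lie to the right for most glial genes and to the left for most endothelial and MHC class II genes.

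Cadm4, the glial adhesion molecule that holds Schwann cell to axon (ENSMUSG00000054793, chromosome 7 from 25267042 to 25289558), was at 69.8 against 288 FPKM, a difference of 2.03 (implied error 0.49). Its level was thus high in the treated tumour and well above that of the vehicle tumour. Pmp22, the myelin gene whose dosage causes inherited neuropathy, was at 82.9 against 196 FPKM, and Mbp (shared locus), myelin basic protein, at 29.3 against 69.6 FPKM. Prx (shared locus), the scaffold periaxin, was at 3.05 against 8.77 FPKM. Of the factors that drive these genes, Egr2 was at 1.23 against 11.4 FPKM, which the authors' deposited table did not call, and Pou3f1 at 9.35 against 21.6 FPKM, which it did. Its relative Pou3f2 went the other way, at 1.57 against 0.549 FPKM. Mag, Gjb1, Ugt8a and Cldn19, genes of mature or compact myelin, stayed under 1 FPKM in both tumours.

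Genes of the immature and neural crest stages were higher as well. Sox10 (ENSMUSG00000033006, chromosome 15 from 78985513 to 78994916) had a difference of 1.55 (implied error 0.32). Foxd3, the crest factor that holds precursors undifferentiated, was at 24.7 against 116 FPKM (difference 2.19). Cdh19, a cadherin of Schwann precursors, was at 4.91 against 25.7 FPKM. Ngfr, the p75 neurotrophin receptor of immature and denervated Schwann cells, was at 18.1 against 52.2 FPKM, and Sox2, which opposes myelination, at 30.2 against 61.9 FPKM. Gfap, the filament of non-myelinating glia, was at 0.999 against 7.86 FPKM. Across the lineage and myelin lists, factors for opposite stages were thus listed higher, Sox2 and Foxd3 beside Pou3f1 and the uncalled Egr2. The Egr2 value is uncertain: its statistic in the authors' deposited table was -0.45 for a natural log fold of 2.23. Nes was at 138 against 133 FPKM and Ednrb at 3.35 against 2.10 FPKM, neither 2-fold apart. The calcium-binding marker S100b stayed under 1 FPKM in both tumours.

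Repair Schwann cell genes, which a cut nerve switches on through JUN, did not shift as a list (12 measured, median 0.16, none 2-fold higher and 2 lower). Nrg1, neuregulin 1, the growth signal that ERBB3 binds, was at 11.8 against 3.35 FPKM and was called lower in the authors' deposited table. Fgf5 was at 5.68 against 1.94 FPKM. Artn, a GDNF family ligand, was at 29.6 against 52.4 FPKM, Gdnf at 13.5 against 16.8 FPKM and Jun (shared locus) at 92.3 against 119 FPKM. Among the receptor kinases of the lineage, Erbb3 was higher (1.03), Erbb2 (shared locus) was at 20.5 against 22.3 FPKM and Egfr (shared locus) at 42.3 against 18.8 FPKM, called lower in the authors' deposited table. Ddr1 (shared locus), a collagen receptor, was at 25.7 against 67.6 FPKM and Pdgfrb at 20.9 against 45.9 FPKM, while Pdgfra was at 142 against 81.5 FPKM. Met and Axl, the most abundant kinases of the list, were at 928 against 891 FPKM and at 1043 against 1342 FPKM. Ligand and receptor thus differed in opposite directions for neuregulin.

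Ion channels and axon guidance proteins shape how Schwann cells sense and meet axons. Only 6 of 20 listed glial ion channel genes were measured, of which 4 were 2-fold higher (median 1.84). With no minimum level the median was 0.38, and with a pseudocount of 5 FPKM it was 0.97, so the size of this value rests on the filter. Scn7a, the sodium-sensing channel of non-myelinating Schwann cells, was at 14.1 against 76.7 FPKM, Kcna6 at 9.83 against 31.1 FPKM and Kcna2 at 0.538 against 5.61 FPKM. Of 19 guidance genes 3 were 2-fold higher and 1 lower, and the median was 0.05. Sema3b, a secreted semaphorin, was at 17.2 against 65.4 FPKM, Sema4f at 5.68 against 19.2 FPKM and the receptor Plxna2 at 3.64 against 11.3 FPKM. Sema3c was at 29.02 against 13.6 FPKM. Of 6 measured neuronal genes 3 were 2-fold higher, among them the neurofilaments Nefl at 1.70 against 26.8 FPKM and Nefm at 8.49 against 25.7 FPKM (both shared locus), but Tubb3 was at 11.4 against 8.82 FPKM. Of the sulphatide and myelin lipid enzymes, Gal3st1, which makes sulphatide, was at 4.99 against 20.03 FPKM and Aspa, which frees acetate for lipid synthesis, at 20.7 against 51.8 FPKM. The list of 11 had a median of -0.02, and the cholesterol synthesis list had none of 21 genes past 2-fold in either direction (median 0.15).

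**Figure D2:**
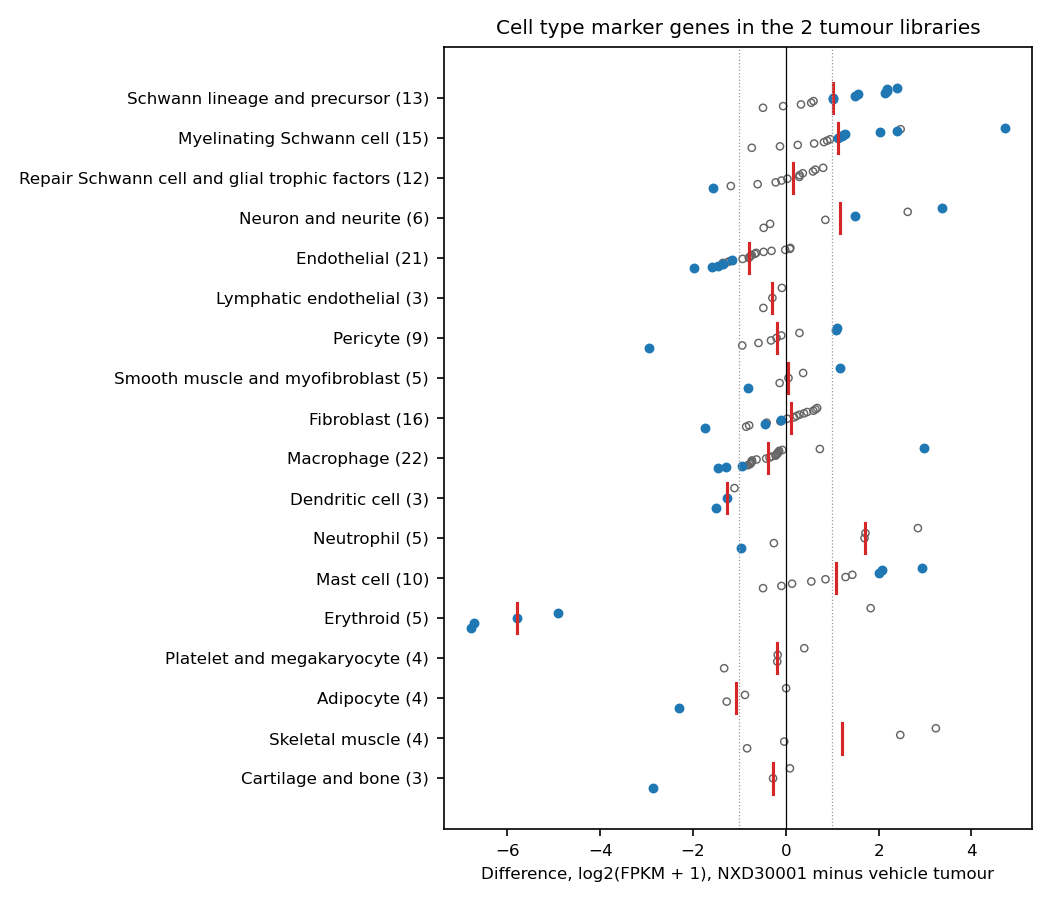
Difference of each measured marker gene on the log2(FPKM + 1) scale, NXD30001 minus vehicle tumour, in one row per cell type with the number of measured genes in brackets. Filled points are genes called in the authors' deposited table, open points are uncalled, red bars are list medians and dotted lines mark 2-fold; lineage, myelin, neuronal, neutrophil, mast cell and skeletal muscle medians lie above 1, and endothelial, dendritic, erythroid and adipocyte medians at or below -0.80. These are medians of genes that passed 1 FPKM in either tumour; with no minimum level they were 0.64 for neutrophil, 0.01 for skeletal muscle, -0.51 for dendritic and -0.38 for adipocyte genes.

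Genes were classed by their detection in the culture libraries. Genes under 0.1 FPKM in both cultures can come from host cells or from graft cells that switched them on in the mouse. They can also be genes whose culture level was missed, and these data do not separate the 3. Hnrnpa0, an RNA-binding protein, was listed at 0 in both cultures and at 280 against 321 FPKM in the tumours. Among genes at 10 FPKM or more in the mean of both tumours, 467 were in this class. Of them 18.4% were 2-fold higher and 26.98% 2-fold lower (median -0.21). Of 8053 such genes at 1 FPKM or more in the DMSO culture, 3.10% were higher and 2.41% lower (median -0.04). The authors' deposited table called 3.43% of the first class higher and 8.35% lower, and 3.01% and 2.02% of the second. By these calls the classes were close upward and apart downward. The classes share the floor of 10 FPKM and were not matched on level. The most abundant of them, small RNAs left aside, was Bgn, the matrix proteoglycan biglycan, at 1693 against 487 FPKM. Plac8 was at 1019 against 402 FPKM and Krt8, a simple epithelial keratin, at 374 against 61.1 FPKM, with its partner Krt18 at 17.4 against 1.39 FPKM. Macrophage transcripts such as Lyz2, at 712 against 558 FPKM, lay closer.

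Endothelial genes were lower in the treated tumour. Of 21 measured, 19 were lower, 9 at least 2-fold and none 2-fold higher, with a median of -0.80 and a summed level of 208 FPKM with vehicle and 110.4 FPKM with NXD30001. The median was -0.45 with a pseudocount of 5 FPKM and -1.22 with a minimum of 5 FPKM. A gene met that minimum in either tumour, so low genes could pass through the vehicle tumour alone. The larger value thus rests in part on the filter. The authors' deposited table called 5 of them lower, where it called 2.45% of all compared genes. Of the 21, 19 were under 0.1 FPKM in both cultures, a class in which 23.2% of compared genes were 2-fold lower. Tek, the angiopoietin receptor TIE2 (ENSMUSG00000006386, chromosome 4 from 94405980 to 94541667), was at 6.30 against 0.864 FPKM, a difference of -1.97 (implied error 0.88). Cdh5, the adherens cadherin of vessels, was at 17.9 against 5.84 FPKM, Pecam1 (shared locus) at 24.8 against 10.5 FPKM and Sox18 at 8.67 against 2.19 FPKM. Nos3 (shared locus), the endothelial nitric oxide synthase, was at 9.29 against 3.01 FPKM and Emcn at 8.86 against 2.85 FPKM. Of the VEGF receptors, Kdr was at 2.33 against 1.14 FPKM and Flt1 at 4.43 against 4.77 FPKM. Ptprb, Flt1 and Aplnr were within 0.10 of no difference. Lymphatic genes were within 2-fold, with Lyve1 at 23.2 against 16.3 FPKM.

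Mural and fibroblast genes were not shifted as lists. Of 9 pericyte genes 2 were 2-fold higher and 1 lower (median -0.20). Pdgfrb, the receptor that draws pericytes to vessels, was at 20.9 against 45.9 FPKM and Mcam (shared locus) at 94.9 against 201 FPKM, but Rgs5 was at 1.90 against 2.56 FPKM. Anpep, the aminopeptidase CD13, was at 39.8 against 4.26 FPKM, a difference of -2.96. Among smooth muscle genes Acta2 was at 82.03 against 186 FPKM and Smtn (shared locus) at 137 against 77.1 FPKM. Of 16 fibroblast genes 1 was 2-fold lower, Cd34 (shared locus), at 326 against 96.7 FPKM, which endothelial progenitors also make. Dcn, decorin, was at 345 against 190.1 FPKM and Col1a1 at 1576 against 1155 FPKM, while Postn, periostin, was at 201 against 313 FPKM. Fibroblast genes had a median of 0.10. Fabp4, of fat cells and capillary endothelium, was at 65.8 against 12.5 FPKM.

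Of the ligands that act on vessels, Vegfa was at 158 against 170.3 FPKM. Angptl4, a lipase inhibitor, was at 84.1 against 18.4 FPKM, and Dll4 (shared locus), the Notch ligand of sprouting tip cells, at 6.49 against 0.802 FPKM. These were the 2 genes past 2-fold among 14. Of 12 Notch genes the receptors Notch1 (shared locus), at 66.8 against 31.4 FPKM, and Notch4, at 39.5 against 20.9 FPKM, were lower, but the target Hes1 was at 9.33 against 27.3 FPKM. Heyl was listed at 0 with vehicle and at 5.81 FPKM with NXD30001. Of 22 hypoxia and glycolysis genes 2 were 2-fold lower and none higher (median 0.02): Car9 (shared locus), the carbonic anhydrase switched on by HIF1, at 37.03 against 8.60 FPKM, and Aldoc (shared locus), at 15.6 against 2.90 FPKM. Other targets of that factor were close, with Ldha at 765 against 711 FPKM and Slc2a1 (shared locus) at 114 against 111 FPKM.

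Globin genes were the 4 lowest of the ranked called genes. Of 5 measured erythroid genes 4, all globins, were lower and 1 was higher, each past 2-fold. The vehicle tumour held 110.0 FPKM of the haemoglobin gene Hba-a1 and 104 FPKM of Hba-a2, both of which the treated tumour lists at 0. Hbb-b1 was at 33.8 against 0.164 FPKM and Hbb-b2 at 65.9 against 0.213 FPKM. The pairs are near-identical copies, so the split within each is uncertain. The gene that was higher was Alas2 (shared locus), the haem synthesis enzyme of red cells, at 0.610 against 4.72 FPKM. Platelet genes showed no such difference as a list (4 measured, 3 lower and 1 higher, median -0.18), with Pf4 at 55.6 against 21.5 FPKM, Itga2b at 22.4 against 19.8 FPKM and Gp1bb at 0.890 against 1.49 FPKM. Globin RNA was thus at or near 0 in the treated tumour, where endothelial genes were lower too, and its part in other host differences was not tested. Epb4.2, a membrane skeleton gene of red cells, was listed at 0 in both tumours.

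Macrophage genes were abundant in both tumours and slightly lower with NXD30001. Of 22 measured, 20 were lower, 2 of them 2-fold, 1 was 2-fold higher, the median was -0.39, and the summed level was 2551 FPKM with vehicle and 2067 FPKM with NXD30001. Among all compared genes 6.93% were 2-fold lower, so the 2-fold count does not set this list apart. Of the 22 genes, 16 were under 0.1 FPKM in both cultures. In that class 1072 of 1896 compared genes were lower, and 23.2% were 2-fold lower. The complement genes C1qa, C1qb and C1qc, made by tissue macrophages, were at 491 against 434 FPKM, at 279 against 247 FPKM and at 263 against 237 FPKM. The receptor of the macrophage growth factor, Csf1r, was at 89.5 against 57.5 FPKM. The mannose receptor Mrc1 (shared locus), at 60.7 against 24.3 FPKM, and Ms4a7, at 52.7 against 18.6 FPKM, were the 2 genes 2-fold lower. Gpnmb, a lysosomal glycoprotein of lipid-laden macrophages and of some glia, stood apart at 2.97 against 30.1 FPKM (difference 2.97). Tlr7, the endosomal sensor of single-stranded RNA, was at 29.99 against 2.92 FPKM. The C1q genes were thus close between the tumours, and single macrophage genes lay on both sides of them.

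MHC class II genes, which present antigen to helper T cells, were lower. All 8 measured genes of the MHC class II list were lower, 4 at least 2-fold, with a median of -0.95. The 8 include Ctss (shared locus), which is not itself an MHC gene, at 160 against 126 FPKM, the smallest difference of the list (-0.35). The median was -0.49 with a pseudocount of 5 FPKM and -2.25 with a minimum of 5 FPKM. Since either tumour could meet that minimum, low genes could pass through the vehicle tumour alone. The larger value thus rests in part on the filter. Of the 8 genes, 7 were under 0.1 FPKM in both cultures. In that class 23.2% of compared genes were 2-fold lower, against 6.93% of all compared genes. Cd74, the invariant chain (ENSMUSG00000024610), was at 31.3 against 4.65 FPKM, a difference of -2.52 (implied error 0.44). H2-Eb1 was at 10.97 against 0.734 FPKM and H2-Aa at 7.24 against 0.735 FPKM. The authors' deposited table called these 3 lower. Of 12 listed dendritic cell genes only 3 were measured. Zbtb46 (shared locus), Irf8 and Fscn1 were at 6.77 against 1.73 FPKM, at 12.3 against 5.18 FPKM and at 88.5 against 36.1 FPKM, though Fscn1 is also made by other cells. Another 8, among them Flt3, Xcr1, Clec9a and Siglech, stayed under 1 FPKM in both tumours. The 3 measured genes thus do not show a difference in dendritic cells. The class I and immunoproteasome list had none of 10 genes past 2-fold (median -0.37).

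Lymphocytes left little trace. Cd3e, Cd2, Cd8a, Ms4a1 and Pax5 were listed at 0 in both tumours, and Ncr1 of NK cells reached 0.255 FPKM at most. Of 14 listed T cell genes 2 were measured, Cd4 and Cd247, with a summed level of 8.15 FPKM with vehicle and 6.24 FPKM with NXD30001. Lck and Foxp3 had no usable estimate. Ly6g of neutrophils was listed at 0 in both tumours. Of 5 measured neutrophil genes 3 were higher and 2 lower. S100a8 was at 2.18 against 21.9 FPKM and S100a9 at 6.96 against 24.8 FPKM, both without a call in the authors' deposited table. The 1 gene it called was Mmp9, which was lower, at 90.2 against 45.8 FPKM, and the summed level of the list was 101 FPKM with vehicle and 97.6 FPKM with NXD30001. Mast cell genes were higher: of 10 measured, 5 passed 2-fold upward and none downward (median 1.07). With a pseudocount of 5 FPKM this median was 0.44, and with a minimum of 5 FPKM it was 2.01. That minimum could be met in either tumour, so low genes could pass through the higher tumour alone. The larger value thus rests in part on the filter. Of the 10 genes, 8 were under 0.1 FPKM in both cultures. In that class 18.7% of compared genes were 2-fold higher, against 7.32% of all compared genes. Hdc, which makes histamine, was at 0.554 against 10.9 FPKM, the tryptase Tpsab1 at 4.10 against 19.6 FPKM and the chymase Cma1 at 0.898 against 6.95 FPKM. The authors' deposited table called these 3 higher. Kit, the receptor that mast cells need, was at 1.41 against 0.716 FPKM, and Ms4a2 was listed at 0 in both.

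Chemokines split by gene. Of 19 measured, 8 were 2-fold lower and 1 higher (median -0.36), but the authors' deposited table called only 1 lower, Ccl5, and 1 higher, Cxcl13. Among all compared genes 6.93% were 2-fold lower. The share was 23.2% among those under 0.1 FPKM in both cultures, as 9 of the 19 were. Ccl5, which draws T cells and monocytes, was at 20.4 against 0.884 FPKM, and the 1.62 FPKM of Cxcl9 and 3.49 FPKM of Ccl3 in the vehicle tumour stood against a listed 0 in the treated one. The monocyte chemokines Ccl7, Ccl8 and Ccl12 were at 16.7 against 6.86 FPKM, at 53.3 against 25.8 FPKM and at 30.98 against 14.3 FPKM, while Ccl2 of the same cluster was at 30.05 against 30.98 FPKM. Cxcl13, which draws B cells, was listed at 0 with vehicle and at 10.4 FPKM with NXD30001. Saa3, an acute-phase protein that macrophages and stroma make, had the largest positive difference of the ranked called genes (ENSMUSG00000040026, chromosome 7 from 53967369 to 53971046). It was at 2.42 against 129 FPKM, a difference of 5.24 (implied error 0.76). Of 13 complement genes, C4b was higher, at 7.41 against 16.6 FPKM, and C1s (shared locus) lower, at 25.8 against 10.5 FPKM.

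Interferon-stimulated genes answer STAT2 and IRF9 through a short promoter word, the interferon-stimulated response element, here 2 GAAA words with 2 bases between them, read on both strands, overlapping matches included. The word was found in the RefSeq promoters (GRCm38.p6, 250 bases before to 50 after each start) of 15 of the 23 measured list genes that have one (65.2%). Counted by gene in the same way, it was in 3.99% of all 27025 genes with a promoter window. The 3 stretches below, all before the start, are printed because 2 belong to genes far lower with NXD30001, Rsad2 and Ifit1, and 1 to a gene that was level, Ifit3, which neighbours Ifit1. Capitals mark the element.
Rsad2, chr12:26456513-26456622, minus strand: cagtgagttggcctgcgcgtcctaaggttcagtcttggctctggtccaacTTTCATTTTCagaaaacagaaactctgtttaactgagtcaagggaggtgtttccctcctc
Ifit1, chr19:34640735-34640863, plus strand: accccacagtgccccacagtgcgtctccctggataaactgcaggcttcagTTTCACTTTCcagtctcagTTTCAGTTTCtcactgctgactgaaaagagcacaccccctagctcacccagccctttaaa
Ifit3, chr19:34583323-34583466, plus strand: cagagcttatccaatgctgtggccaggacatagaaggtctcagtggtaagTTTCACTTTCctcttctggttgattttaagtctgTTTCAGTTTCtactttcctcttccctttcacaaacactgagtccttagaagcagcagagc

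Most interferon-stimulated genes were lower in the treated tumour, but by amounts that varied between genes with the same promoter word. Of 28 measured, 25 were lower, 7 at least 2-fold and none 2-fold higher, with a median of -0.56, and the authors' deposited table called 3 lower. For all compared genes the median was -0.03 and 6.93% were 2-fold lower. Rsad2, the antiviral enzyme viperin, was at 12.2 against 1.28 FPKM, Ifit1 at 8.89 against 3.62 FPKM and Ifit3 at 14.4 against 14.9 FPKM. The element was thus present both where the levels were far apart and where they were close. Oasl1 (shared locus) was at 17.8 against 2.90 FPKM and Mx1, a GTPase against viruses, at 5.48 against 1.94 FPKM. Isg15, the ubiquitin-like modifier, was at 52.6 against 28.4 FPKM and Irf7 (shared locus) at 71.4 against 38.3 FPKM. Oasl1 and Irf7 had no match to the word in the window, so genes without it were lower too. Of the factors themselves, Stat2 was at 15.4 against 12.4 FPKM and Irf9 (shared locus) at 28.6 against 28.2 FPKM. Bst2, the most abundant member, was at 201 against 175 FPKM. Of the 28 genes 6 lie on chromosomes 5 and 15, described below, and without them the median was -0.32. With a pseudocount of 5 FPKM it was -0.35.

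**Figure D3:**
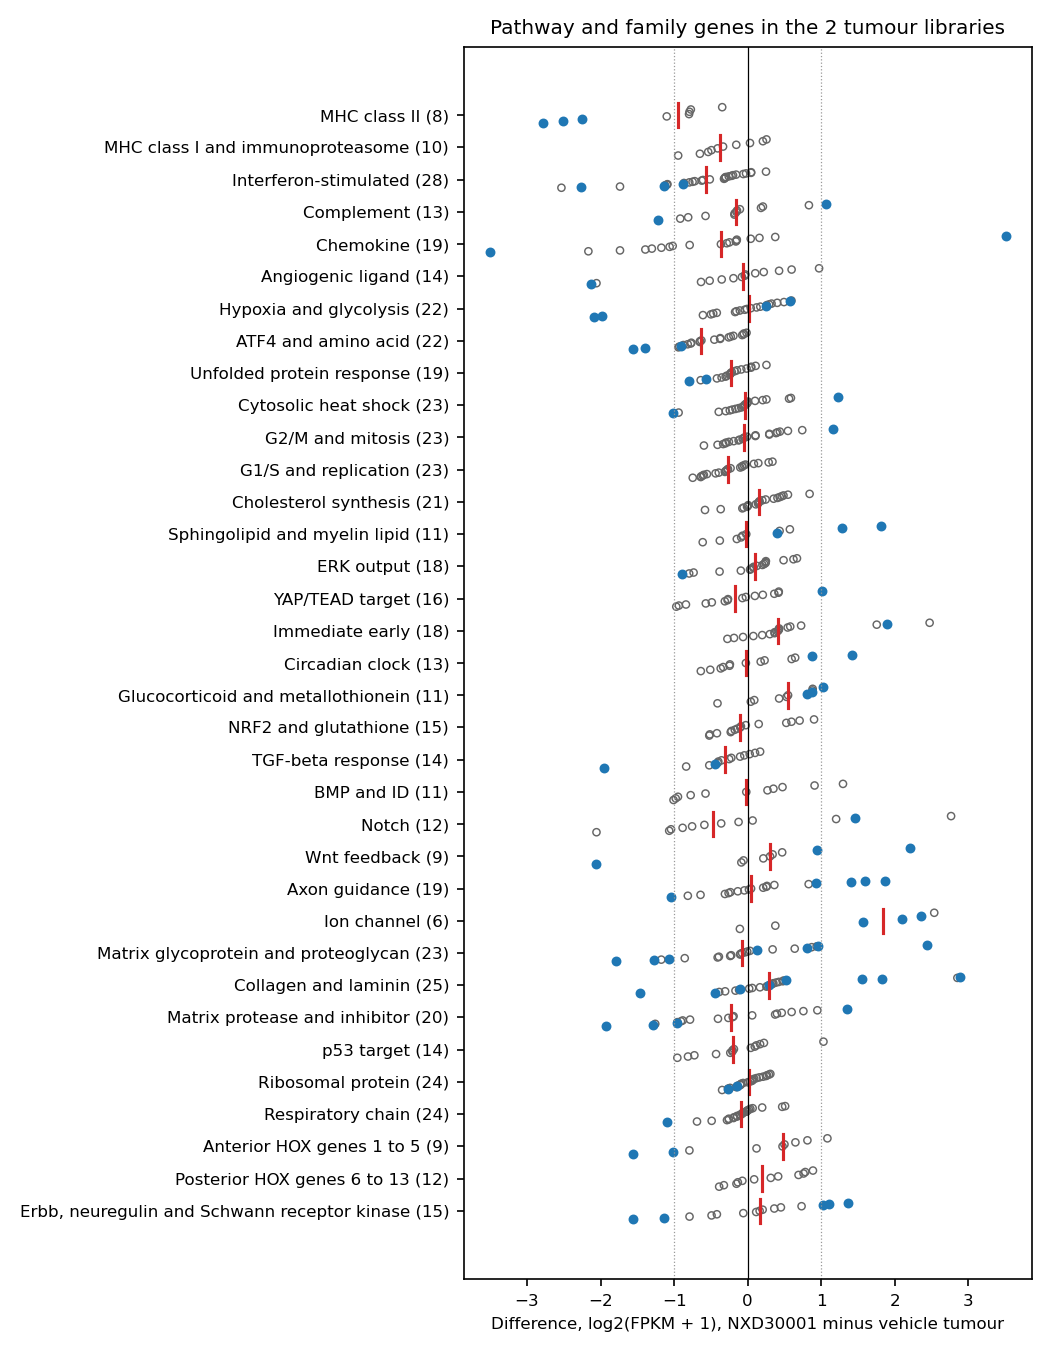
Difference of each measured gene of 35 pathway and family lists on the log2(FPKM + 1) scale, NXD30001 minus vehicle tumour, drawn as for the cell types (filled, called in the authors' deposited table; open, uncalled; red bar, median; dotted lines, 2-fold). All 22 ATF4 genes lie at or left of 0, while ribosomal genes cluster within 0.35 of it.

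Genes of the amino acid response, which the factor ATF4 switches on when amino acids run short or the endoplasmic reticulum is stressed, leaned lower as a list. All 22 measured were below 0, by as little as -0.01, with a median of -0.64 and a summed level of 2023 FPKM with vehicle and 1356 FPKM with NXD30001. Only 2 were past 2-fold. Among all compared genes 6.93% were 2-fold lower, so the 2-fold count does not set this list apart. The median of all compared genes was -0.03, with a lower quartile of -0.35. Of 11009 compared genes at 1 FPKM or more in the DMSO culture, 5885 were below 0. The list thus leaned in one direction, with most of its differences under 2-fold. Psph, the last enzyme of serine synthesis (ENSMUSG00000029446, chromosome 5 from 130271434 to 130285320), was at 113 against 37.6 FPKM, a difference of -1.56 (implied error 0.30). Pck2, mitochondrial PEP carboxykinase, was at 43.9 against 16.1 FPKM, and Asns, asparagine synthetase, at 186 against 98.7 FPKM. The authors' deposited table called these 3 lower, where its share over all compared genes was 2.45%. Slc7a5, the leucine transporter, was at 89.9 against 46.8 FPKM, Mthfd2 of one-carbon metabolism at 65.5 against 33.6 FPKM and Trib3 at 19.7 against 10.3 FPKM. Atf4 itself was at 254 against 196 FPKM, Ddit3 (shared locus), its partner CHOP, at 55.1 against 54.6 FPKM and Phgdh, the first serine enzyme, at 112 against 106 FPKM. Ddit3 and Phgdh were thus close between the tumours, and the enzymes of serine synthesis differed unequally. Psph lies on chromosome 5 and Atf4 on chromosome 15, and the median without those chromosomes was also -0.64.

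The word TGATGNAA, the core of the amino acid response element on either strand, was in the promoter of 8 of 19 listed genes with a RefSeq window (42.1%). Among all genes with a window the share was 4.51%. The stretches of the called genes that hold it before their start are printed with the word in capitals, and that of Chac1, a glutathione-degrading enzyme at 15.5 against 9.67 FPKM, beside them.
Asns, chr6:7693210-7693282, minus strand: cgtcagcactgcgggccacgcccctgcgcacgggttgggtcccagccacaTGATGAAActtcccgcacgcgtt
Pck2, chr14:55540113-55540220, plus strand: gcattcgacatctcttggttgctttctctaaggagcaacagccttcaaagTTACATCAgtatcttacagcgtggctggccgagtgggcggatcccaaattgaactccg
Chac1, chr2:119350999-119351106, plus strand: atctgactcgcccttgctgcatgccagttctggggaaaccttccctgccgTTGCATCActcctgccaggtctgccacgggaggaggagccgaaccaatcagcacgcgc
A match describes these letters only and does not show that the factor binds there.

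The unfolded protein response list leaned the same way by less, with 15 of 19 lower, none past 2-fold and a median of -0.23. Hspa5, the chaperone BiP, was at 1376 against 789.8 FPKM and Hsp90b1 (shared locus), the HSP90 of the endoplasmic reticulum, at 774 against 520.5 FPKM, both called lower in the authors' deposited table. Xbp1 was at 84.8 against 87.6 FPKM. The cytosolic heat shock genes, targets of HSF1, showed no shift as a list (23 measured, median -0.04, 1 gene 2-fold higher and 1 lower). The drug's targets Hsp90aa1 and Hsp90ab1 were at 672 against 667 FPKM and at 1497 against 1460.1 FPKM. Cryab, a small heat shock protein of glia and muscle, was at 157 against 369.7 FPKM and Hsph1 at 137 against 67.7 FPKM. The inducible Hspa1a and Hspa1b (near-identical copies with a shared locus) were at 23.2 against 27.9 FPKM and at 12.7 against 19.6 FPKM. The heat shock element (GAA, TTC and GAA with 2 bases between each, on both strands) was in a promoter of 4 of 18 listed genes (22.2%). Among all genes with a window the share was 0.662%. Most listed genes thus had no match in this window.

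Growth genes differed little. Of 23 mitosis genes 1 was 2-fold higher, Cenpe, a kinesin of the kinetochore, at 3.06 against 8.07 FPKM, and the median was -0.04. Mki67 was at 14.6 against 19.4 FPKM and Top2a (shared locus) at 120.5 against 129.9 FPKM. Replication genes leaned lower, with 19 of 23 below 0, none past 2-fold and a median of -0.27, and Tyms was at 46.5 against 29.7 FPKM. ERK output genes, a readout of receptor kinase signalling, had none of 18 past 2-fold (median 0.10). Among them Spry1 was at 32.6 against 17.1 FPKM, Etv4 at 62.4 against 35.6 FPKM and Dusp6 (shared locus) at 56.8 against 67.5 FPKM, so feedback genes of this pathway lay on both sides of 0. Of 16 YAP/TEAD targets, the transcripts of the arm that merlin restrains, 1 was past 2-fold: Lats2 (shared locus), the kinase that restrains YAP, at 20.8 against 42.99 FPKM. Ctgf (shared locus) was at 212 against 118 FPKM, Cyr61 at 88.7 against 119 FPKM and Ankrd1 at 41.8 against 29.5 FPKM. The ribosomal protein list had a median of 0.02 and the respiratory chain list of -0.09.

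Matrix lists held genes of both directions. Of 23 matrix glycoproteins and proteoglycans 9 were higher and 14 lower (median -0.07). Fn1 (shared locus), fibronectin, was at 1596 against 659.6 FPKM, and Bgn was the abundant proteoglycan with the largest difference (-1.79, implied error 0.09). Hspg2, perlecan of basement membrane, was at 311 against 607 FPKM and Thbs4, a thrombospondin, at 10.7 against 62.3 FPKM. Col4a1 and Col4a2 (both shared locus) were at 144 against 207 FPKM and at 169 against 238 FPKM, and Lama2 (shared locus), the laminin chain of the Schwann cell basal lamina, at 6.41 against 25.3 FPKM. Other genes of that zone were lower or level: Col15a1 and Col18a1 (both shared locus) were at 64.1 against 51.6 FPKM and at 119 against 90.6 FPKM, and Lamc1 (shared locus) at 98.3 against 99.8 FPKM. Col28a1, a collagen of peripheral glia, was at 0.539 against 10.1 FPKM, uncalled in the authors' deposited table with a statistic of -0.40. Col20a1 (shared locus) was at 9.87 against 79.1 FPKM. Of 25 collagen and laminin genes 18 were higher and 7 lower (median 0.29), 4 of them 2-fold higher and 1 lower, Col12a1 (shared locus), at 102 against 36.3 FPKM. Of 20 protease genes 3 were 2-fold lower and 1 higher. The collagenases Mmp13 and Mmp14 (shared locus) were at 5.08 against 0.598 FPKM and at 134 against 54.6 FPKM, and Mmp17 at 4.91 against 14.02 FPKM. Acan, the cartilage proteoglycan aggrecan, was at 31.9 against 3.50 FPKM and Ltbp2, which binds latent TGF-beta, at 15 against 3.14 FPKM. Angptl7 (shared locus), chosen after its values were seen, was at 1372 against 286 FPKM.

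Of the smaller families, the immediate early and the glucocorticoid and metallothionein lists leaned higher, while the clock list did not lean. Among all compared genes 7.32% were 2-fold higher, and the median was -0.03. Of 18 immediate early genes 15 were higher, 3 of them 2-fold (median 0.41). The most abundant of those 3 was the nuclear receptor Nr4a1, at 11.5 against 45.5 FPKM. Fos was at 14.7 against 25 FPKM and Egr1 at 21.4 against 22.6 FPKM. Of 11 glucocorticoid and metallothionein genes 10 were higher (median 0.55). Tsc22d3, the glucocorticoid-induced leucine zipper, was at 171 against 301 FPKM, Dusp1 at 69.4 against 143 FPKM, Per1 at 50.9 against 94.1 FPKM and the metallothionein Mt1 at 1219.7 against 1642 FPKM, yet Fkbp5 (shared locus), a common reporter of that receptor, was at 178 against 134 FPKM. Of 13 clock genes Dbp (shared locus) was 2-fold higher, at 16.2 against 44.8 FPKM, and Arntl was at 6.07 against 7.30 FPKM (median -0.02). The hour of day of collection was not found in the sources used here. The Wnt antagonist Dkk2 was at 46.4 against 10.4 FPKM and Notum (shared locus) at 0.486 against 5.87 FPKM.

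Of the remaining genes with the largest called differences, several have little known tie to the groups above. Rtf1, a subunit of an elongation complex of RNA polymerase, was at 21.3 against 782 FPKM (implied error 1.44), the second largest positive difference in that ranking. Pcdh10, a protocadherin of the nervous system, was at 0.878 against 21.5 FPKM, Hspb7, a small heat shock protein of heart, at 0.784 against 19.5 FPKM and Syt13 at 1.37 against 21.3 FPKM. E2f6, a repressor of the E2F family, was at 156 against 21.1 FPKM. Entpd2 (shared locus), an ectonucleotidase of non-myelinating glia, was at 6.40 against 53.4 FPKM and Ttyh1 (shared locus) at 20.8 against 145 FPKM, the last pair chosen after their values were seen.

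**Figure D4:**
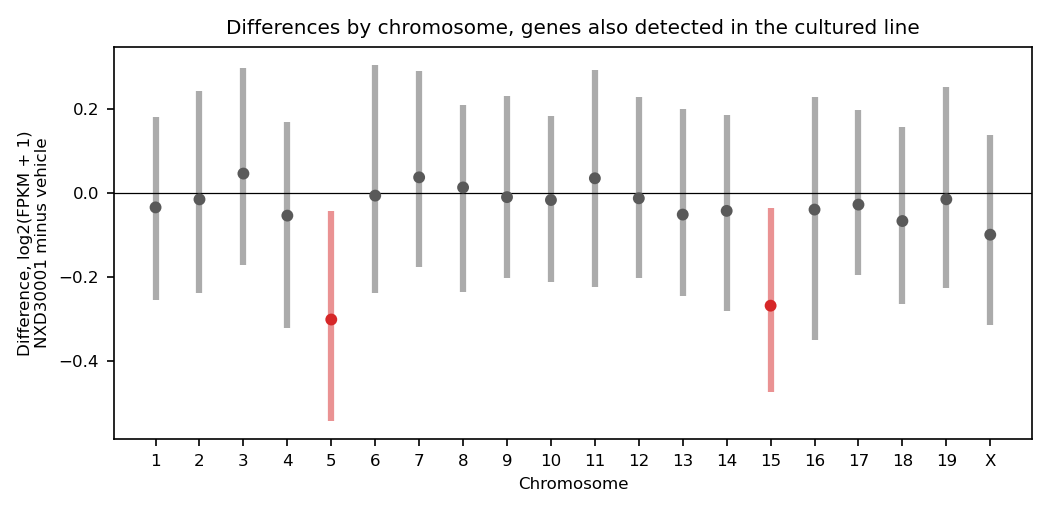
Median (point) and quartiles (bar) of the difference on the log2(FPKM + 1) scale, NXD30001 minus vehicle tumour, for each chromosome, over genes at 1 FPKM or more in the DMSO culture and 10 FPKM or more in the mean of both tumours. Chromosomes 5 and 15 (red) have medians of -0.30 and -0.27, and the other 18 lie between -0.10 and 0.05.

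The differences also followed position in the genome, a pattern chosen for description after the values were seen. Among genes that the cultured line transcribes, at 10 FPKM or more in the tumours, those of chromosome 5 had a median of -0.30, with 428 of 558 lower (76.7%). Those of chromosome 15 had a median of -0.27, with 251 of 322 lower (78.0%). On each of the other 18 chromosomes the median lay between -0.10 and 0.05, with 44.0% to 62.7% lower. Genes with a locus of their own gave -0.29 and -0.27. In windows of 10 Mb with 10 or more genes, all 14 of chromosome 5 (-0.56 to -0.15) and all 9 of chromosome 15 (-0.45 to -0.10) were below 0, against 127 of 211 elsewhere. For genes under 0.1 FPKM in both cultures, at 3 FPKM or more in the tumours, the medians were -0.09 on chromosome 5 (52 genes) and -0.33 on chromosome 15 (42 genes), within the range of the other chromosomes (-0.45 to 0.06). The small shift thus ran along both whole chromosomes in genes of the line. Sox10 lies on chromosome 15 and was higher all the same. The files hold no measure of DNA copy number, so its part was not tested.

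Shorter blocks were further apart. On chromosome 6, between 8 and 16 Mb (mm9), all 11 such genes were higher, with a median of 1.28, and 8 were called in the authors' deposited table. Ndufa4, a subunit tied to cytochrome oxidase, was at 218 against 449 FPKM, Phf14 at 18.2 against 47.7 FPKM, Tmem168 at 24.3 against 64.96 FPKM and Mdfic at 34.3 against 118 FPKM. Just beyond, between 17 and 18 Mb, lie genes that were very abundant in both tumours: Cav1, the caveolar coat protein, at 3583 against 3194 FPKM, the receptor kinase Met at 928 against 891 FPKM and the actin capper Capza2 at 2478 against 2025 FPKM. In the separately made culture table the DMSO library had them at 67.95, 15.4 and 132 FPKM. Such gaps were not limited to this block: Lgals1, on chromosome 15, was at 7040 FPKM in the vehicle tumour and 355 FPKM in the DMSO culture. Vim was at 5664 and 5130 FPKM. Levels of the 2 tables are thus not read against each other. Cav2, the neighbour of Cav1, was at 323 against 700.2 FPKM. Between 18 and 23 Mb, Fam3c was at 692 against 156 FPKM, Ing3 at 242 against 68.2 FPKM and Lsm8 at 578 against 239 FPKM, while Ptprz1 was at 29.3 against 67.9 FPKM. From 23 to 32 Mb the 23 genes had a median of 0.09. Higher, level and lower genes thus lay in adjacent runs.

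**Figure D5:**
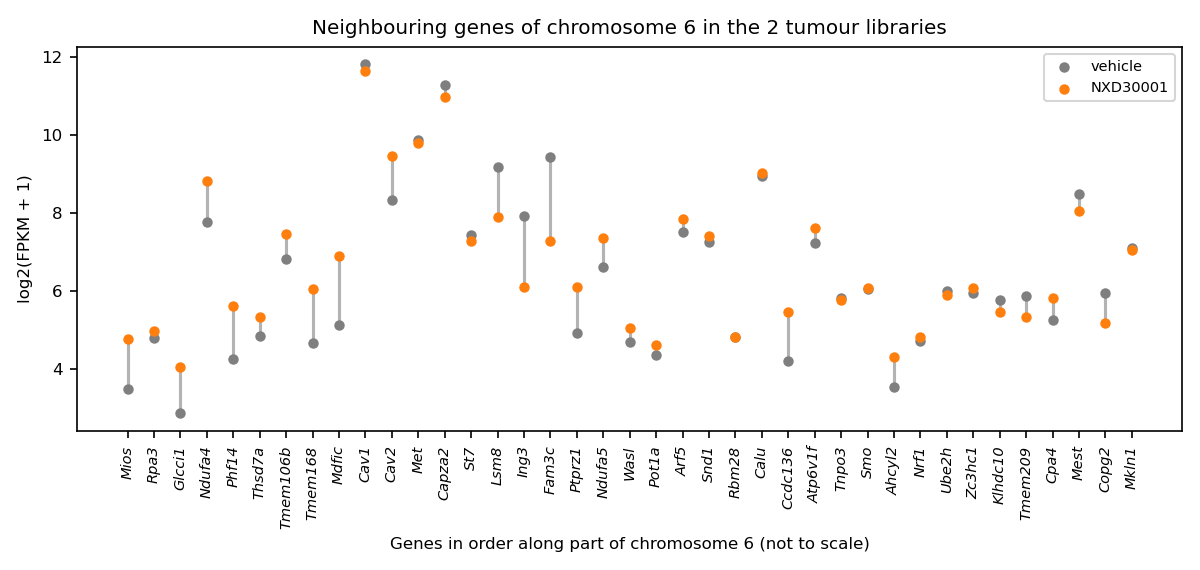
Levels as log2(FPKM + 1) in the vehicle (grey) and NXD30001 (orange) tumour libraries, n = 1 each, for genes in their order along part of chromosome 6, with unnamed clone and predicted genes left out. Orange lies above grey for every gene from Mios to Mdfic, both are high from Cav1 to St7, and orange lies below from Lsm8 to Fam3c.

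On chromosome 16, between 84 and 98 Mb, 33 of 39 such genes were lower, with a median of -0.49. Hmgn1, a nucleosome-binding protein, was at 259 against 107 FPKM, Atp5o (shared locus), a subunit of ATP synthase, at 128 against 59.7 FPKM, and App (shared locus), the amyloid precursor, at 345 against 225 FPKM. The block also holds receptor genes of the interferon pathway: Ifnar1 was at 27 against 16.2 FPKM, Ifnar2 at 67.8 against 49.1 FPKM and Ifngr2 at 32 against 30.4 FPKM, none of them 2-fold apart or called in the authors' deposited table. Mx1 and Mx2, antiviral genes they induce, lie on the same chromosome.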

How the data were processed

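RNA was extracted from the tumours with Trizol and a column kit, per the labels' protocols, while Cuffdiff, Cufflinks 1.0.2, TopHat 1.2.0, CASAVA and the mouse build mm9 are listed in the submitters' processing notes. The deposited tables give each gene's level as FPKM, per the file headers, beside the authors' fold as a natural log, their test score, a q-value and a yes or no call. Called q-values were at most 0.0498, and uncalled ones reached 1.82, above the range of a probability. Total counts per library are not in these values, so only relative depth is given. Groups follow the labelled treatment. The labels' sample type reads cultured cells for all 4 samples, while title and treatment put 2 in tumours.

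Rows with status FAIL (347) or LOWDATA (449) were left out, as were 19258 usable rows under 1 FPKM in both tumours. The pseudocount was 1 FPKM. Of the compared genes 323 were listed at 0 with vehicle and 343 with NXD30001, and no ratio is given for them. The implied error is the authors' natural log fold over their test score, in log2. One-fragment genes were those whose error lay within 0.005 (natural log) of that of 1 fragment per library. The tables were made separately, so culture levels served to class genes by detection, with the levels of a few genes given beside. Loci are the deposited mm9 loci with 1 added to the start: of 19955 single-gene loci, end minus start equalled the GENCODE length in 10580 and the length less 1 in 268.

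The 63 gene lists, their members and the rule for named genes were chosen with earlier results of these data known. Named were the first 3 members of each list and up to 6 with the largest difference, the 20 highest and 20 lowest called genes and the 10 most abundant, not all of which are reported here. Other members, and the chromosomes and blocks, were chosen after their values were seen. Alternatives were other pseudocounts, minima, centring, leaving out shared loci and leaving out or centring chromosomes. The scripts (Python 3.11.15, pandas 2.3.3, numpy 2.4.6) were tested on simulated data.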

Additional observations from a re-analysis of the deposited data

How the results depend on the processing

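No replicate or animal error is available, so single genes are not separated from chance, and low genes had the widest implied error. The counts of 1139 higher and 1077 lower genes became 451 and 424 with a pseudocount of 5 FPKM, 734 and 675 with a minimum of 5 FPKM, and 555 and 532 without shared loci, the last 2 by testing fewer genes. They were 1184 and 1014 centred on the median, and 1045 and 955 without chromosomes 5 and 15. Of 415 list medians under all alternatives, 361 stayed within 0.1 or 1.5 times of their value, 54 moved further and 0 changed sign with both values 0.1 or more from 0. By setting, the pseudocount of 5 FPKM moved 14, no minimum level 12, the minimum of 5 FPKM 9 and leaving out shared loci 11. Some medians crossed 0, for example those of fibroblast genes from 0.10 to -0.04 with the minimum of 5 FPKM, receptor kinases from 0.16 to -0.06 and skeletal muscle genes from 1.22 to -0.03 without shared loci. Leaving out chromosomes 5 and 15, an alternative added after seeing the data, moved the median of 6 lists, among them posterior HOX genes, 0.20 to 0.69, interferon-stimulated genes, -0.56 to -0.32, and clock genes, -0.02 to 0.18. No paired analysis was possible because each group has 1 library.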

Other observations

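HOX genes, which keep a record of body position, were transcribed along the trunk range in both tumours. Of 12 measured genes of groups 6 to 13 none was past 2-fold (median 0.20), with Hoxb9 at 41.1 against 77.0 FPKM, Hoxc6 at 40.0 against 53.7 FPKM and Hoxc10 at 38.3 against 34.9 FPKM (vehicle first). Of 9 measured genes of groups 1 to 5, Hoxb3 and Hoxb2 (both shared locus) were lower, at 8.32 against 2.15 FPKM and at 1.06 against 0.0161 FPKM. Hoxd3 (shared locus) was at 7.24 against 16.5 FPKM, uncalled in the authors' deposited table with a statistic of -0.097. In the same cluster as Hoxb3, Hoxb5 (shared locus) was at 5.12 against 8.61 FPKM.

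The p53 target list (14 measured) had a median of -0.20 and 1 gene past 2-fold, Bbc3, the death gene PUMA, at 16 against 33.8 FPKM, while Cdkn1a was at 30.3 against 31.2 FPKM. None of 15 NRF2 and glutathione genes was past 2-fold (median -0.10). Of 14 TGF-beta genes 11 were lower (median -0.30), with the receptor Tgfbr2 at 142 against 78.9 FPKM. The inhibitors of differentiation moved apart within their family: Id1 was at 13 against 6.10 FPKM and Id3 (shared locus) at 43.6 against 82.7 FPKM. Skeletal muscle genes were low and uneven, with Mylpf at 3.31 against 22.9 FPKM and Acta1 at 2.51 against 2.43 FPKM.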
